A study of Mus musculus with 6 samples.

Results

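Glycolysis breaks glucose down to pyruvate and lactate, and the hypoxia response raises many of its genes when oxygen is short. Transcripts of 35 genes of these pathways were followed in colorectal tissue of mice with chemically induced colitis. The genes were a fixed list of symbols from the glucose transporter Slc2a1 to the histone demethylase Kdm3a. All 35 were among the 18268 genes of the expression table, and all 35 passed the filter on low values. Both groups were wild-type C57BL/6 mice, described by the study as adult males, that drank dextran sulfate sodium (DSS) for 7 days. DSS is a sulfated polymer that injures the lining of the colon. The BBR group (3 mice) received berberine, a plant alkaloid, by gavage for 6 days, and the SASP group (3 mice) received sulfasalazine, an aminosalicylate prodrug, for 6 days. Colitis was therefore shared by all 6 mice, each contrast was between the drugs, and healthy or untreated mice were not analysed here.

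In oxygenated cells, prolyl hydroxylases of the EGLN family mark the alpha subunits of the hypoxia-inducible factors, HIF-1 alpha (Hif1a) and HIF-2 alpha (Epas1), for destruction. When oxygen is low the subunits persist and bind DNA at hypoxia response elements near genes for glucose uptake, glycolysis, lactate export, blood vessel growth and pH control. The colon surface normally lies next to an oxygen-poor lumen, so part of this programme is active there even in health. Immune cells and dividing cells also use it to fuel activation and growth.

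Levels were given as FPKM, fragments scaled to transcript length and to the mapped reads of the library, which allows levels to be compared between genes. Differences were taken on the scale of log2(FPKM + 1), BBR minus SASP, and tested by limma across 12072 genes with adjustment of p-values over all of them. The sum of FPKM lay between 461163 and 487054 in the 6 libraries. Correlations of log2 values across genes were 0.982 to 0.989 within the SASP group and 0.987 for BBR mice 1 and 2, whereas BBR mouse 3 reached 0.953 and 0.949 with them, so members whose difference moved by over 1.5 times or whose call changed without BBR mouse 3 are given with and without it. The epithelial markers Epcam, Cdh1 and the other 10 of their list were present in every library, with summed levels of 8780 to 9680 FPKM in BBR against 9054 to 10284 FPKM in SASP mice. Nothing in the labels says whether mice of a group shared a cage or litter, and p-values measure only the spread between these samples. In whole tissue, fewer cells of a type and less RNA per cell cannot be told apart.

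Few genes of the set passed the test between the drugs. Of the 35 genes, 1 passed the threshold (adjusted p under 0.05), Pgk1, which was lower in BBR mice, and 0 passed as higher. That is 2.86% of the members, where 8.86% of all tested genes passed (5.04% as lower, 3.82% as higher). The median difference of the members was -0.10, with 14 above 0 and 21 below, against 0.10 for all tested genes. In 11 members the 3 BBR values lay apart from the 3 SASP values, 4 above and 7 below, or 31.4% of the list against 37.9% of the tested genes (21.3% above, 16.6% below). At an unadjusted p under 0.05 the counts were 4 higher and 5 lower, 9 of 35 members where 31.8% of all tested genes were under that value. The 95% interval of the difference included 0 in 26 members.

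**Figure D1:**
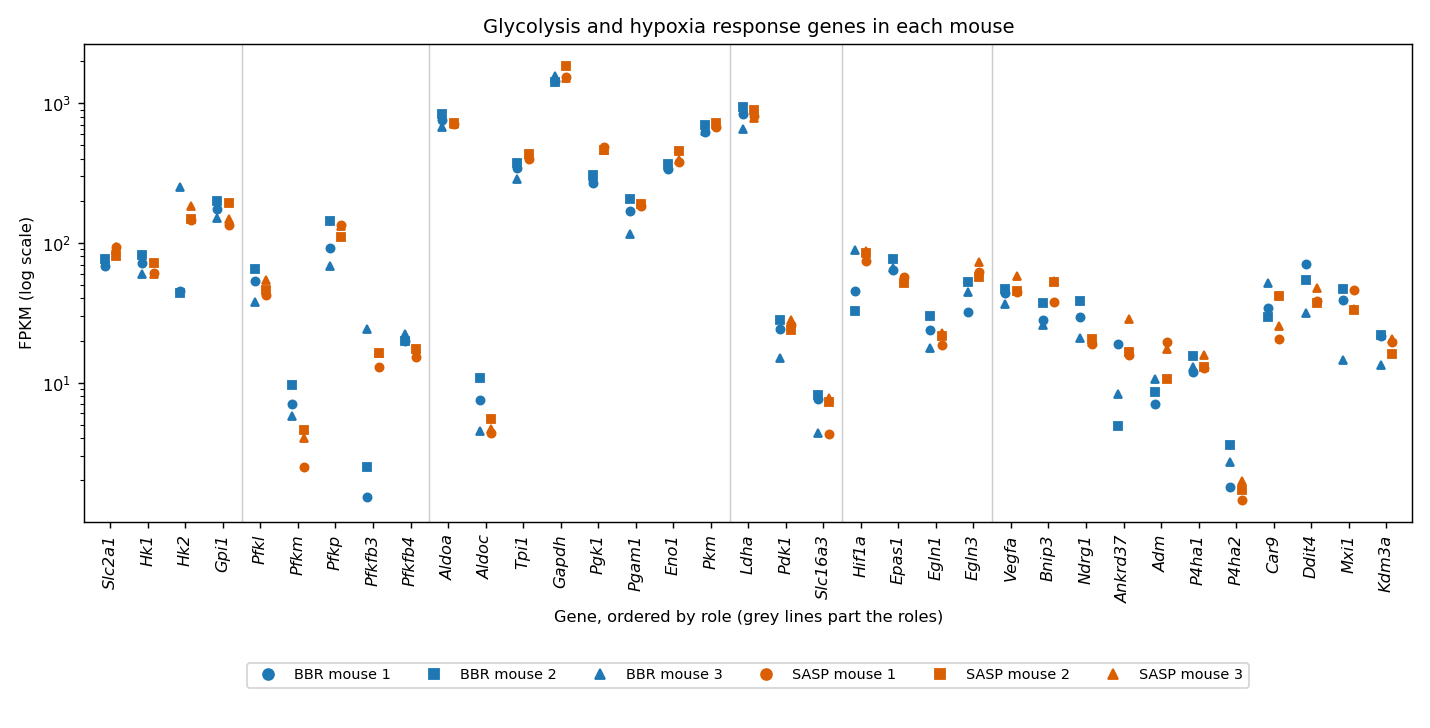
FPKM of the 35 genes on a log axis, ordered by role, with 1 point per mouse (blue, BBR; orange, SASP; the shape gives the mouse). Levels ran from 1.44 FPKM for P4ha2 to 1861 FPKM for Gapdh, and for Hk2, Pfkfb3 and Hif1a the blue triangle of BBR mouse 3 stands far above the other blue points.

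Glucose enters cells through transporters and is trapped by hexokinases. Slc2a1, the basal transporter GLUT1, was at 68.7, 77.3 and 77.3 FPKM in BBR mice 1, 2 and 3 and at 93.7, 80.0 and 93.7 FPKM in SASP mice. The BBR values were all below the SASP values, by 16.5% of the mean, but the difference of -0.26 did not pass (adjusted p = 0.161, 95% interval -0.51 to 0.0034). Gpi1, the isomerase that follows hexokinase, ranged from 134 to 200 FPKM and overlapped between the groups (0.15, adjusted p = 0.562, and 0.26 without BBR mouse 3).

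The hexokinases differed in how even they were among mice. Hk2, the inducible hexokinase bound to mitochondria, was at 44.9 and 43.7 FPKM in BBR mice 1 and 2, at 254 FPKM in BBR mouse 3, against 147, 150 and 185 FPKM in SASP mice. BBR mice 1 and 2 thus lay far below every SASP mouse and BBR mouse 3 above all of them. With all mice the difference was -0.99 (SE 0.64, limma adjusted p = 0.314, 95% interval -2.50 to 0.52). Without BBR mouse 3 it was -1.82 (SE 0.12, adjusted p = 0.00106). Hk1, the housekeeping hexokinase, lay between 59.9 and 82.3 FPKM in all 6 mice, with a difference of 0.15 (adjusted p = 0.497), or 0.27 without BBR mouse 3.

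The make-up of the hexokinase pool followed from this. Hk1 held 59.2% and 62.3% of the summed FPKM of Hk1, Hk2, Hk3 and Hkdc1 in BBR mice 1 and 2 and 19.0% in BBR mouse 3, against 28.8%, 32.1% and 24.2% in SASP mice. Hk2 held 36.9%, 33.0% and 80.6% in BBR mice and 69.7%, 67.0% and 74.6% in SASP mice. Hk1 transcripts therefore outnumbered Hk2 transcripts per length in 2 of 6 mice, both of them BBR mice. The difference in mean share did not pass an exact two-sided permutation test (p = 0.4 for both genes, adjusted p = 0.42 over 21 shares), in which 3 against 3 mice cannot give a p below 0.1. Hk3, the hexokinase of myeloid cells, was at 0.34, 0.47 and 0.22 FPKM in BBR against 1.56, 1.13 and 1.61 FPKM in SASP mice. Its difference of -0.86 passed the threshold (limma adjusted p = 0.0247). However, Hk3 reached 1 FPKM in SASP mice only. It met the filter through the group where it was high, and its values lay near the floor, so the pass carries little weight.

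Phosphofructokinase commits sugar to glycolysis and is formed from liver (Pfkl), muscle (Pfkm) and platelet (Pfkp) subunits. Pfkm was at 7.05, 9.66 and 5.76 FPKM in BBR and at 2.49, 4.60 and 4.01 FPKM in SASP mice. All BBR values were above all SASP values, with a ratio of means of 2.02 and a difference of 0.86 (SE 0.24, 95% interval 0.29 to 1.42) that did not pass (limma adjusted p = 0.0663). It passed without BBR mouse 3 (1.01, adjusted p = 0.0228), with quantile normalization (0.74, adjusted p = 0.0401) and with median-ratio scaling (0.74, adjusted p = 0.0467). Pfkp, the most abundant subunit, ranged from 68.4 to 143 FPKM in BBR and from 111 to 133 FPKM in SASP mice (-0.36, adjusted p = 0.353, and -0.11 without BBR mouse 3), and Pfkl from 37.9 to 65.5 and from 42.0 to 53.8 FPKM (0.11, adjusted p = 0.730, and 0.32 without that mouse).

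As shares of the phosphofructokinase pool, the 3 subunits lay apart between the groups in every mouse, BBR mouse 3 included. Pfkp held 60.5%, 65.5% and 61.0% in BBR and 75.0%, 68.5% and 69.4% in SASP mice. Pfkl held 34.9%, 30.0% and 33.8% in BBR and 23.6%, 28.7% and 28.5% in SASP mice, and Pfkm held 4.43% to 5.14% and 2.85% or less. Each share had the smallest p the exact permutation test can give, 0.1 (adjusted p = 0.23), so none could pass. Smooth muscle markers moved the same way as Pfkm: 11 of 11 were higher, 0 past the threshold, with summed levels of 3264 to 7561 FPKM in BBR against 906 to 2702 FPKM in SASP mice. Within the SASP group the order of the mice was the same for both, with sums of 906, 2702 and 2024 FPKM and Pfkm at 2.49, 4.60 and 4.01 FPKM. The order within the BBR group differed, as BBR mouse 3 had the highest sum but the lowest Pfkm level of that group (5.76 FPKM). Of the 13 skeletal muscle markers in the table, 2 passed the filter and 0 the test, and their summed level was 8.70 to 21.7 FPKM in BBR against 7.40 to 12.5 FPKM in SASP mice. Ckm, muscle creatine kinase, was at 5.90, 5.63 and 15.3 FPKM in BBR against 1.4, 6.40 and 3.96 FPKM in SASP mice (1.03, limma adjusted p = 0.198). Acta1, skeletal actin, was at 0.99, 0.88 and 2.51 FPKM in BBR against 7.63, 3.21 and 1.73 FPKM in SASP mice (-0.97, adjusted p = 0.179), and the fast myosin gene Myh1 was at 0.03 FPKM or less. Pfkm also passed with weights for library quality (0.76, limma adjusted p = 0.00192), a fit in which most tested genes passed. The part of either tissue in the Pfkm difference was not tested.

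Fructose 2,6-bisphosphate, the strongest activator of phosphofructokinase, is made by the PFKFB enzymes. Pfkfb3, an inducible form with high kinase activity, was at 1.51 and 2.50 FPKM in BBR mice 1 and 2 and at 24.2 FPKM in BBR mouse 3, against 12.8, 16.2 and 16.4 FPKM in SASP mice. This was the pattern of Hk2, with a 16.0-fold range within the BBR group and a 1.28-fold range within the SASP group. The difference was -1.41 with all mice (SE 0.79, limma adjusted p = 0.259, 95% interval -3.29 to 0.47) and -2.44 without BBR mouse 3 (SE 0.18, adjusted p = 0.00132). Pfkfb4, another hypoxia-inducible form, was much steadier, at 19.8, 19.8 and 22.1 FPKM in BBR against 15.1, 17.3 and 17.4 FPKM in SASP mice, above in every BBR mouse (0.30, adjusted p = 0.116). It was the leading PFKFB transcript in BBR mice 1 and 2, with 57.1% and 56.1% of the family's FPKM, and shared the lead with Pfkfb3 in BBR mouse 3 and the SASP mice, where Pfkfb4 held 37.0% to 40.8% and Pfkfb3 33.7% to 40.4%.

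**Figure D2:**
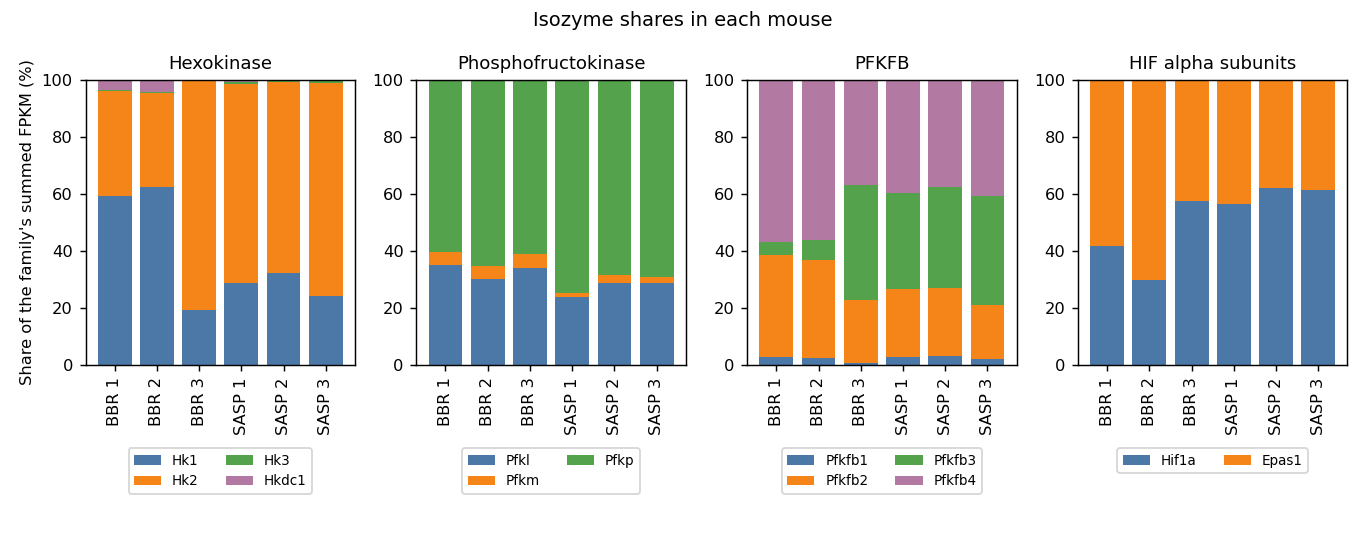
Share of each gene in the summed FPKM of its family, in percent, with 1 stacked bar per mouse. In the hexokinase, PFKFB and HIF alpha panels BBR mouse 3 resembles the SASP bars (Hk2 at 80.6%, Pfkfb3 at 40.4%, Hif1a at 57.6%), and in the phosphofructokinase panel it resembles BBR mice 1 and 2.

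Lower glycolysis held several of the most abundant transcripts of the set, Gapdh, Aldoa and Pkm among them. Pgk1, phosphoglycerate kinase, which makes the first ATP of the pathway and is a classical HIF-1 target, was the 1 gene past the threshold. It was at 269, 304 and 299 FPKM in BBR mice and at 490, 463 and 466 FPKM in SASP mice. The groups lay far apart with a narrow spread in each, and the BBR mean of 291 ± 18.8 FPKM was 38.4% below the SASP mean of 473 ± 14.8 FPKM (SD, n = 3 each). The difference was -0.70 (SE 0.11, limma adjusted p = 0.0186). Its size hardly moved when single mice were left out, from -0.73 to -0.65, but with 5 mice it passed only without BBR mouse 3 (adjusted p = 0.00468). Without any other single mouse the adjusted p was 0.0501 to 0.0989, and with a smooth muscle score as covariate it was 0.201 (-0.70).

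Transcripts of proliferation genes were also lower in BBR mice, 12 of 12 below 0 and 8 past the threshold, with a summed level of 86.6 to 146 FPKM against 246 to 347 FPKM in SASP mice. Their part in the Pgk1 difference was not tested.

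Of the other 7 enzymes of lower glycolysis, 0 passed. Tpi1, triose phosphate isomerase, was at 342, 371 and 287 FPKM in BBR and at 399, 436 and 427 FPKM in SASP mice, with no overlap (-0.34, limma adjusted p = 0.133, and -0.48 with adjusted p = 0.0444 under median-ratio scaling). Eno1, enolase, was at 336, 370 and 356 FPKM in BBR and at 377, 458 and 396 FPKM in SASP mice, again apart (-0.21, adjusted p = 0.275). Gapdh, often used as a reference gene, had the highest level of the set, at 1425 to 1567 FPKM in BBR against 1531 to 1861 FPKM in SASP mice (-0.14, adjusted p = 0.560). Its 95% interval of -0.53 to 0.24 leaves room for moderate differences either way, and the sign turned to 0.0035 with quantile normalization.

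Pgam1 and Pkm, the mutase and the pyruvate kinase, differed by -0.25 and -0.10 (limma adjusted p = 0.420 and 0.609). Pgam1 was nearly constant in SASP mice, at 185 to 191 FPKM, and spread from 116 to 206 FPKM in BBR mice, and its difference was -0.023 without BBR mouse 3. Aldoa, the main aldolase, was at 673 to 839 FPKM in BBR against 706 to 720 FPKM in SASP mice (0.08, adjusted p = 0.704, with -0.053 under median-ratio scaling and 0.16 without BBR mouse 3). Aldoc, the brain-type aldolase, was at 7.53, 10.8 and 4.46 FPKM in BBR against 4.35, 5.44 and 4.67 FPKM in SASP mice (0.50, adjusted p = 0.248), and passed without BBR mouse 3 (0.79, adjusted p = 0.0178). Many glycolytic enzyme genes have processed pseudogenes, and the division of reads among such copies is uncertain. The retrocopy Eno1b was listed at 1 FPKM or less in every mouse.

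Letters of the hypoxia response element were searched in promoters because Pgk1 and several other members are known HIF targets. RefSeq promoter windows on GRCm38.p6, from 250 bases before to 50 bases after each annotated start, were found for 33 of the 35 members (51 windows), and Epas1 and Ndrg1 had none. The core was taken as ACGTG or GCGTG on either strand. At least 1 core was found for 31 of 33 members (93.9%), against 67.3% of the 9699 tested genes with a window. Over all 27025 genes of the promoter set used, expressed or not, the share was 46.7%. The gap was wider for ACGTG (24 of 33, 72.7%, against 29.3% of tested genes) than for GCGTG (66.7% against 55.6%). A gene counted if any of its windows held the letters, so genes with more windows had more room for them. Counted by window, a core was in 78.4% of member windows and 61.2% of those of tested genes. The shares were 54.9% and 25.2% for ACGTG, and 52.9% and 49.6% for GCGTG. The E-box CACGTG, which contains ACGTG, was found for 15.2% of members and 11.7% of tested genes, and in 9.8% of the windows of either. The members were listed as glycolysis and hypoxia response genes, so a higher share of the core could be foreseen from that choice. These shares describe letters, and no binding was measured.

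The windows of 4 members that were lower in every BBR mouse are shown, since they range from many cores to none. The capitals mark the core on either strand: in the printed strand, ACGTG of the opposite strand reads as CACGT. Likewise GCGTG reads as CACGC. Pgk1 (chrX:106186850-106187149, plus strand) has 2 cores, at -150 to -146 and -131 to -127 from its start. Adm (chr7:110627407-110627706, plus strand) has 2, Bnip3 (chr7:138909457-138909756, minus strand) has 5, of which 2 overlap in an E-box, and Tpi1 (chr6:124814109-124814408, minus strand) has 0.
Pgk1: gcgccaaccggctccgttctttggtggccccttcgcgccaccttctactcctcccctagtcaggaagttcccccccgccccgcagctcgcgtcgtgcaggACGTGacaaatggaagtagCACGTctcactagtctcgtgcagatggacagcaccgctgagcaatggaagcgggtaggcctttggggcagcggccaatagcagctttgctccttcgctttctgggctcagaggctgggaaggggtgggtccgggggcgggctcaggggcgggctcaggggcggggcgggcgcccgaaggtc
Adm: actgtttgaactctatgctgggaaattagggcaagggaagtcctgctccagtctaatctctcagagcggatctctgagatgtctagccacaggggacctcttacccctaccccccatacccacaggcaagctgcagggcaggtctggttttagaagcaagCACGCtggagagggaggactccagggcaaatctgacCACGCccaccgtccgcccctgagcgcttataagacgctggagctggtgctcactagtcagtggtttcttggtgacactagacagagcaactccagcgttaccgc
Bnip3: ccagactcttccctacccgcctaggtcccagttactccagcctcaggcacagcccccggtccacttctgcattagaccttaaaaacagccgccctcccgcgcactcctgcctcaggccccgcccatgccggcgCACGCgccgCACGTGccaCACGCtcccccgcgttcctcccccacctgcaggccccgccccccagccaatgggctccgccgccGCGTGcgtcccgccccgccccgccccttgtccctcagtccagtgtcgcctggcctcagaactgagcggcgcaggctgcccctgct
Tpi1: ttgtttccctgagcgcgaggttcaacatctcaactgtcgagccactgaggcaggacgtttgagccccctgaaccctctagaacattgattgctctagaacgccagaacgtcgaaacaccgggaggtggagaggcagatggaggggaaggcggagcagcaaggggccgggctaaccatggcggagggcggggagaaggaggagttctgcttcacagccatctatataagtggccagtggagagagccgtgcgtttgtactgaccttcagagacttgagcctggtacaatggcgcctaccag

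Pyruvate is turned to lactate by lactate dehydrogenase or enters mitochondria, and PDK1 closes the mitochondrial route. Ldha was next to Gapdh in abundance in every mouse but BBR mouse 3, at 839, 948 and 658 FPKM in BBR against 808, 893 and 786 FPKM in SASP mice, and the groups overlapped (-0.04, limma adjusted p = 0.890, 95% interval -0.45 to 0.37). It held 98.2% or more of the summed FPKM of Ldha and Ldhb in every mouse. Pdk1 was at 23.98, 28.2 and 15.1 FPKM in BBR against 25.9, 23.8 and 28.0 FPKM in SASP mice (-0.24, adjusted p = 0.470, and 0.0090 without BBR mouse 3). Slc16a3, the lactate exporter MCT4, was at 4.25 to 8.13 FPKM in all mice (0.05, adjusted p = 0.908). Without BBR mouse 3 the differences of Ldha and Slc16a3 were 0.11 and 0.30, and neither passed.

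By contrast, Slc16a1, the transporter MCT1 that carries butyrate and lactate into colonocytes, rose by 1.13 (SE 0.26, limma adjusted p = 0.0444), from 71.1, 94.2 and 64.6 FPKM in SASP to 211, 192 and 113 FPKM in BBR mice. It belongs to a list of 48 further genes of glycolysis and pyruvate handling, of which 40 could be tested. In that list 6 rose and 1 fell, 17.5% against the background of 8.86%, and the median difference was 0.03. Genes that rose included Slc16a1, Gpd1l (0.92), Pdp2 (1.32), Pck1 (2.32) and Galm (1.18). The gene that fell was Hk3, which met the filter through SASP mice alone. Pck1, 1 of several gluconeogenic enzymes in the list, was at 152, 109 and 33.6 FPKM in BBR against 13.5, 14.4 and 19.8 FPKM in SASP mice (limma adjusted p = 0.0410).

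Summed over the 20 members from Slc2a1 to Slc16a3, the level was 5364, 5856 and 5314 FPKM in BBR against 5851, 6473 and 5956 FPKM in SASP mice. The groups overlapped by a narrow margin, the ratio of the means was 0.905, and an exact permutation test gave p = 0.2 (two-sided, smallest possible 0.1). With median-ratio scaling the ratio was 0.825 and the groups were apart (exact permutation p = 0.1).

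Related pathways were compared in the same fit. Of 8 pentose phosphate genes, 7 were below 0 and 0 passed (median -0.29). Pgd, 6-phosphogluconate dehydrogenase, came nearest, at 116, 130 and 164 FPKM in BBR against 199, 203 and 191 FPKM in SASP mice (-0.55, limma adjusted p = 0.0602). Of 12 glycogen genes, 9 were above 0 and 0 passed (median 0.35).

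**Figure D3:**
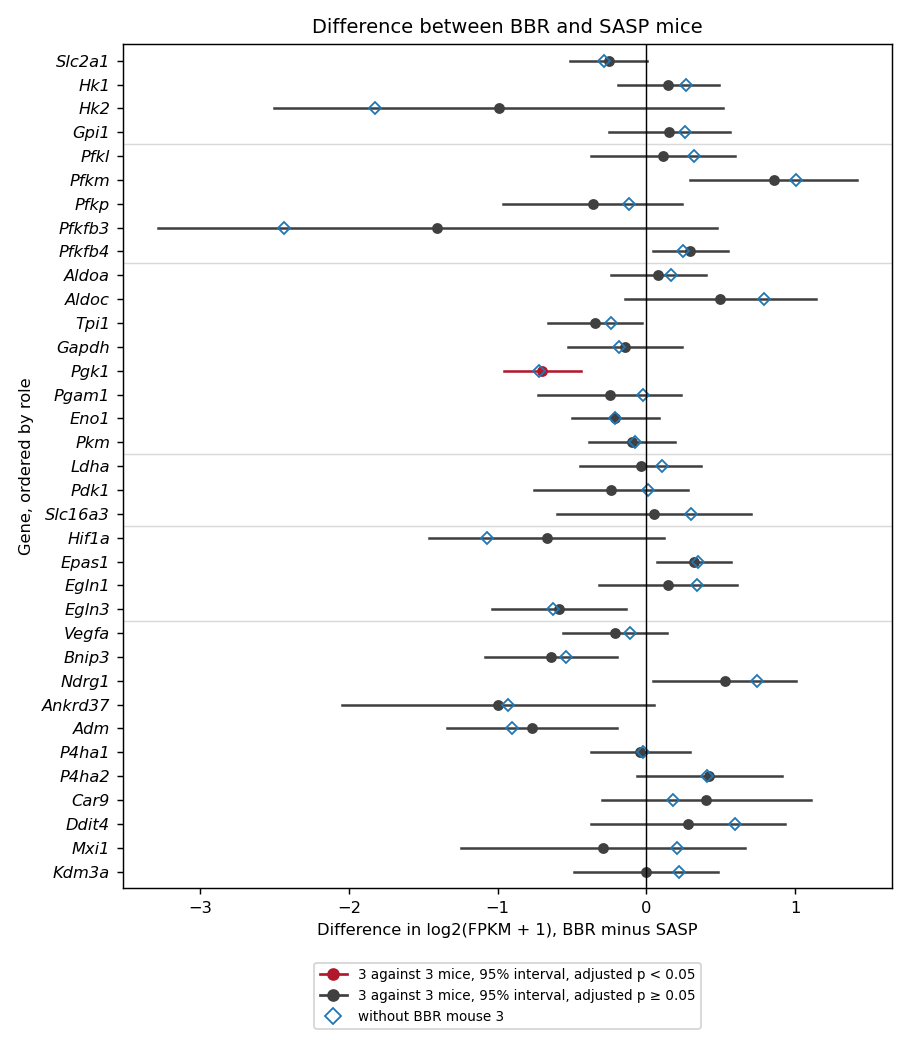
Difference in log2(FPKM + 1), BBR minus SASP, for each member (circles, with 95% intervals from limma over 3 against 3 mice; red where the adjusted p is under 0.05) and the same difference without BBR mouse 3 (open diamonds). Pgk1 at -0.70 is the 1 red circle, and Pfkfb3, Hk2, Mxi1 and Hif1a show the widest shifts between circle and diamond, with Mxi1 crossing 0.

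The oxygen sensors and their factors were examined next. Hif1a was at 45.6 and 32.4 FPKM in BBR mice 1 and 2, at 89.7 FPKM in BBR mouse 3, against 74.3, 84.6 and 87.4 FPKM in SASP mice. BBR mice 1 and 2 were below every SASP mouse and BBR mouse 3 above them, as for Hk2 and Pfkfb3. The difference was -0.67 with all mice (SE 0.33, limma adjusted p = 0.211, 95% interval -1.46 to 0.12) and -1.07 without BBR mouse 3 (SE 0.16, adjusted p = 0.00624).

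The difference of Epas1 had the opposite sign, although BBR mouse 3 lay above every SASP mouse for both genes. Epas1 was at 64.2, 76.3 and 66.1 FPKM in BBR and at 57.4, 52.0 and 55.2 FPKM in SASP mice. All its BBR values were above all SASP values, with a ratio of means of 1.25. The difference of 0.32 did not pass with all mice (SE 0.11, limma adjusted p = 0.0938, 95% interval 0.07 to 0.57) and passed without BBR mouse 3 (0.35, adjusted p = 0.0426). Hif1a transcripts made up 41.5% and 29.8% of the summed FPKM of both subunits in BBR mice 1 and 2, 57.6% in BBR mouse 3 and 56.4% to 61.9% in SASP mice (exact permutation p = 0.2). Endothelial markers, a cell type in which Epas1 is known to be high, were above 0 in 9 of 9 tested genes, 1 past the threshold, with sums of 30.8 to 52.4 FPKM in BBR against 17.3 to 24.7 FPKM in SASP mice. Their part in the Epas1 difference was not tested.

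Of the hydroxylases, Egln3, which HIF itself induces, was at 32.1, 52.2 and 44.4 FPKM in BBR against 61.8, 57.0 and 73.4 FPKM in SASP mice. It was below in every BBR mouse (-0.59, SE 0.19, limma adjusted p = 0.0910) and passed only with median-ratio scaling (-0.72, adjusted p = 0.0493) and with library weights (-1.02). Egln1, the main oxygen sensor, was at 23.8, 30.2 and 17.5 FPKM in BBR against 18.7, 21.7 and 22.8 FPKM in SASP mice (0.14, adjusted p = 0.636, and 0.34 without BBR mouse 3). Among 13 further tested genes of oxygen sensing, which include Vhl and Arnt, 8 were above and 5 below 0, and 0 passed (median 0.04).

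**Figure D4:**
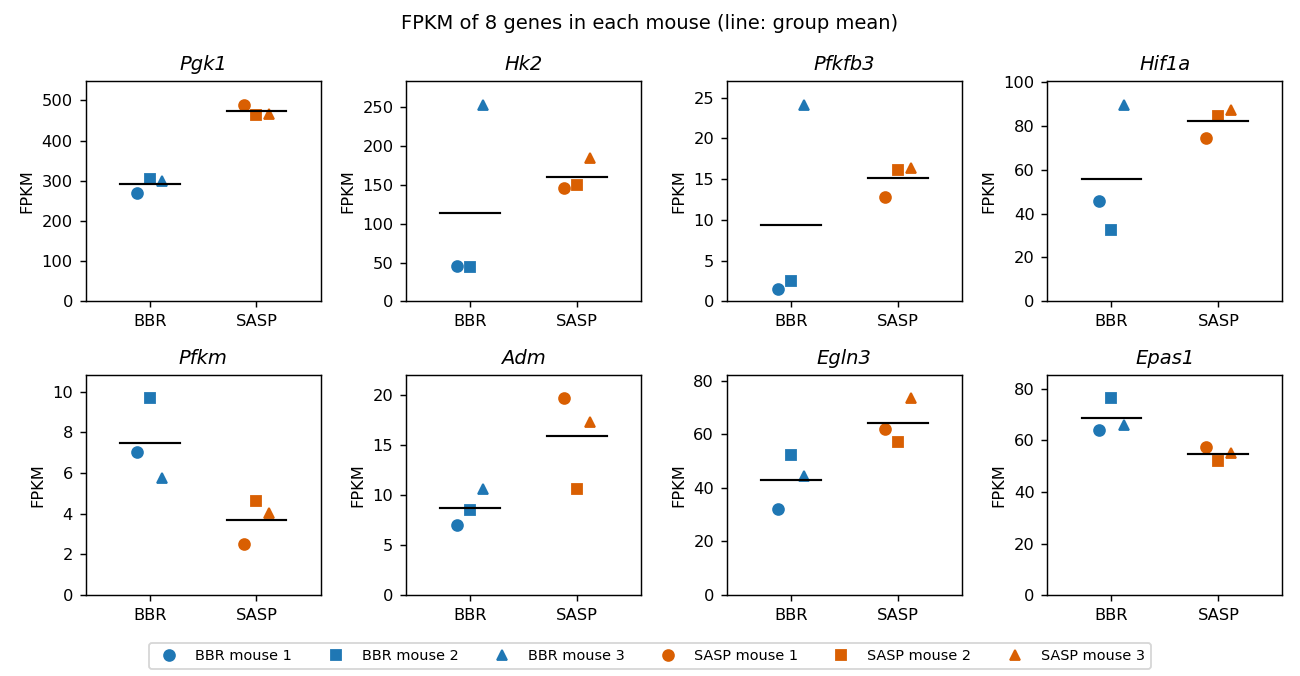
FPKM of 8 members on linear axes from 0, with 1 point per mouse and a line at the group mean. Pgk1, Pfkm, Adm, Egln3 and Epas1 keep the groups apart in all 6 mice, while for Hk2, Pfkfb3 and Hif1a BBR mouse 3 lies above the highest SASP mouse and BBR mice 1 and 2 below the lowest.

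Further HIF targets showed no common direction. Of these 11 genes, 4 were above 0 and 7 below, and 0 passed (median -0.04). Adm, the vasodilator peptide adrenomedullin, was at 7.01, 8.53 and 10.6 FPKM in BBR and at 19.6, 10.6 and 17.3 FPKM in SASP mice. The groups touched without overlapping, at 10.58 and 10.61 FPKM, and the difference was -0.77 (SE 0.24, limma adjusted p = 0.0854), or -0.90 without BBR mouse 3 (adjusted p = 0.0367). Bnip3, a receptor for the removal of mitochondria, was at 28.0, 37.0 and 26.0 FPKM in BBR and at 37.4, 52.9 and 53.6 FPKM in SASP mice (-0.64, SE 0.19, adjusted p = 0.0735). It passed with quantile normalization (-0.65, adjusted p = 0.0497), with median-ratio scaling (-0.77, adjusted p = 0.0212) and with library weights (-0.82).

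Ankrd37, a small gene used as a marker of HIF activity, was uneven in both groups, at 18.8, 4.88 and 8.33 FPKM in BBR against 15.9, 16.4 and 28.6 FPKM in SASP mice (limma adjusted p = 0.172, 95% interval of the difference -2.05 to 0.05). Vegfa, the angiogenic growth factor, lay between 36.4 and 58.1 FPKM in all mice (-0.21, adjusted p = 0.348, and -0.11 without BBR mouse 3). Car9, a carbonic anhydrase that handles acid at the cell surface, was at 34.1, 29.3 and 51.3 FPKM in BBR against 20.5, 41.7 and 25.2 FPKM in SASP mice (0.40, adjusted p = 0.374, and 0.18 without BBR mouse 3).

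Ndrg1, a stress- and differentiation-linked target, lay higher in BBR mice, at 29.4, 38.1 and 21.0 FPKM against 18.9, 20.4 and 19.5 FPKM in SASP mice. The groups did not overlap, but BBR mouse 3 was close to the SASP range, and the difference of 0.53 (limma adjusted p = 0.131) passed without it (0.74, adjusted p = 0.00885). Ddit4, an inhibitor of mTOR signalling, was at 70.6, 54.5 and 31.7 FPKM in BBR against 38.2, 37.3 and 47.4 FPKM in SASP mice (0.28, adjusted p = 0.507, and 0.59 with adjusted p = 0.0297 without BBR mouse 3). Mxi1, an antagonist of Myc, was at 39.3 and 46.6 FPKM in BBR mice 1 and 2, at 14.6 FPKM in BBR mouse 3, against 33.0 to 45.9 FPKM in SASP mice (-0.29, adjusted p = 0.638, and 0.20 with adjusted p = 0.359 without BBR mouse 3).

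The collagen prolyl hydroxylases P4ha1 and P4ha2 differed by -0.04 and 0.42 (limma adjusted p = 0.859 and 0.203), that of P4ha1 being -0.020 without BBR mouse 3. P4ha2 was the least abundant member of the set, at 1.78, 3.58 and 2.70 FPKM in BBR against 1.44, 1.69 and 1.98 FPKM in SASP mice. Kdm3a lay between 13.4 and 21.8 FPKM, with a difference of -0.0012 (adjusted p = 0.998, 95% interval -0.48 to 0.48), or 0.22 without BBR mouse 3. In a list of 53 other hypoxia response genes 39 could be tested, of which 0 rose and 1 fell, Pim1 (-0.97, adjusted p = 0.0393). Its median was 0.16, with 25 above and 14 below 0.

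The calls depended on whether BBR mouse 3 was included. It was below both other BBR mice in 19 members, above them in 7 and between them in 9. Without it 5 members passed as higher (Pfkm, Aldoc, Epas1, Ndrg1 and Ddit4) and 5 as lower (Hk2, Pfkfb3, Pgk1, Hif1a and Adm). Those are 10 of 35 members, where 33.8% of all tested genes passed without that mouse. With weights for library quality 20 members passed, 7 as higher and 13 as lower, but so did 59% of the tested genes. Its library also held the highest smooth muscle sum (7561 FPKM, against 3264 and 3537 in BBR mice 1 and 2). The inflammatory granulocyte genes S100a8 and S100a9 were at 6.19 and 5.25 FPKM in it, at 0.11 FPKM or less in BBR mice 1 and 2, and at 6.91 to 23.1 FPKM in SASP mice. Of the 9 granulocyte markers found, 5 were tested, with 1 past the threshold as lower and a summed level, mostly Ly6g, of 192 to 568 FPKM in BBR against 357 to 536 FPKM in SASP mice. Cxcr2 was at 1.36, 0.89 and 1.80 FPKM in BBR against 1.26, 1.34 and 0.85 FPKM in SASP mice (0.12, limma adjusted p = 0.693). Csf3r was at 0.60, 0.58 and 1.72 FPKM in BBR against 1.59, 1.62 and 1.90 FPKM in SASP mice (-0.51, adjusted p = 0.184). Mpo, on the same list, was at 0.02 FPKM or less and was not tested. The part of granulocytes or smooth muscle in the values of Hk2, Pfkfb3 and Hif1a was not tested.

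Markers of other cell types are given for all members. Leukocyte markers were below 0 in 8 of 8 genes and macrophage markers in 5 of 8, with 0 past the threshold in either list. Their sums were 21.8 to 37.6 and 109 to 170 FPKM in BBR against 36.4 to 77.4 and 165 to 187 FPKM in SASP mice. Fibroblast markers were above 0 in 9 of 9 genes with 4 past the threshold, at 316 to 423 FPKM in BBR against 141 to 247 FPKM in SASP mice. Of the T and B cell markers 3 were tested and 1 fell, at sums of 25.4 to 129 FPKM in BBR against 28.6 to 70.6 FPKM in SASP mice. The 1 that fell, Cd79b, also met the filter through SASP mice alone. Neuron and glia markers (8 tested, all above 0), adipocyte markers (1 tested) and red blood cell markers (4 tested) had 0 past the threshold. Of the 12 epithelial markers, 2 rose and 1 fell.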

How the data were processed

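RNA of 6 colorectal samples, 3 per drug, was sequenced by the authors, and 1 table of FPKM values per gene and sample was deposited. The study's methods describe rRNA removal and read filtering by SOAPnuke, and the submitters' processing notes name Bowtie2 2.2.5, RSEM 1.2.12 and build mm9. The labels name an Illumina kit and the methods another platform. The annotation is not given in the sources used here. Read totals are unknown, so no counting intervals are given. RSEM divides reads among similar genes.

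Groups came from the treatment label, replicate numbers follow accession order and pair no mice. The filter kept genes that reached 1 FPKM in 3 or more of 6 samples, and these were tested with limma 3.58.1 (R 4.3.3) on log2(FPKM + 1), with variance trend, two-sided, Benjamini-Hochberg adjustment over 12072 genes and a threshold of 0.05. Isozyme shares used exact permutation tests. The model was run on simulated data with independent noise and planted changes larger than any member difference with all mice. That run does not show how the model handles smaller differences or a deviating library. All members are named; of other lists, up to 3 genes with the smallest p past the threshold, isozymes, and genes a member's result turns on, while other genes (Slc16a1, Pdp2, Pck1, Galm, Pgd and the marker genes) were chosen after their values were seen. Members and lists were chosen with earlier results of these data known. Promoters are RefSeq windows on GRCm38.p6, not the build of the FPKM. Alternatives were other pseudocounts (0.1, 0.01), filters, scalings, weights, a covariate and leaving out each mouse. Results for 1 gene of another list are not reported here.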

Additional observations from a re-analysis of the deposited data

How the results depend on the processing

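The counts of 0 members higher and 1 lower held with pseudocounts of 0.1 and 0.01, no filter, a mean of at least 5 FPKM, FPKM rescaled to equal sums and no variance trend. Quantile normalization gave 1 higher and 2 lower, median-ratio scaling 1 and 4, array quality weights 7 and 13, and the smooth muscle covariate 0 lower. All tested genes passed at 14.4%, 13.9%, 59% and 0.149% in these fits. The smooth muscle score was higher in every BBR mouse, so it and the drug cannot be told apart. Without single mice both counts ranged from 0 to 5, and the median difference of the members from -0.15 to 0.0090, above 0 only without BBR mouse 3. The summed level of the glycolytic steps, -0.14 on the log2 scale, moved to -0.28 with median-ratio scaling, which lowered the median of all genes from 0.10 to -0.02. Pgk1 was called in 9 of 10 alternatives with all mice and in 1 of 6 that left out a mouse, at -0.83 to -0.64. The sign was kept in all fits by 24 members and changed in 11, none of which passed in the fit where it changed.

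With quantile normalization Gapdh turned to 0.0035, Ldha to 0.026 and Slc16a3 to -0.044. With median-ratio scaling Pfkl turned to -0.021, Aldoa to -0.053 and Slc16a3 to -0.065, and with rescaling to equal sums Kdm3a to 0.033. With array weights Ldha, Mxi1 and Kdm3a turned to 0.077, 0.17 and 0.10. With the covariate Ldha, Pdk1, Slc16a3, Car9, Mxi1 and Kdm3a turned to 0.073, 0.066, -0.053, -0.30, 0.56 and 0.36. Across left-out mice Pfkl ranged from -0.066 to 0.32, Ldha from -0.16 to 0.11, Pdk1 from -0.42 to 0.0090, Slc16a3 from -0.18 to 0.30, Egln1 from -0.038 to 0.34, P4ha1 from -0.14 to 0.047, Mxi1 from -0.60 to 0.20 and Kdm3a from -0.11 to 0.22. The causes were not tested. The 21 isozyme shares kept the sign of their difference without any single mouse.

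No paired analysis was possible because the replicate numbers only name mice. No rule for unusual results was applied, as groups of 3 are too small for an outlier test and there was 1 contrast.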
